A study of Homo sapiens with 12 samples.

Results

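The nuclear genes for subunits of the 5 oxidative phosphorylation (OXPHOS) complexes were followed in HEK293T cells treated with siRNAs against snaR-A. They were chosen by symbol among protein-coding genes, as NDUFA, NDUFB, NDUFC, NDUFS, NDUFV or NDUFAB followed by a number and nothing else, as the SDH and UQCR genes with CYC1, as the ubiquitous COX subunit genes, and as symbols starting with ATP5F1, ATP5M or ATP5P. This gave 79 of the 63541 genes in the table, of which 77 were among the 21999 genes tested. By complex there were 36 genes of complex I, 4 of complex II, 9 of complex III, 11 of complex IV and 19 of complex V, with NDUFA4 counted in complex IV where its protein sits. HEK293T is a human embryonic kidney line, and snaR-A is a short noncoding RNA made by RNA polymerase III. Cells received 12.5 nM of a scramble siRNA or of 1 of 3 siRNAs against snaR-A (si-snaR-A#1 to si-snaR-A#3, written siRNA #1, #2 and #3 from here on) for 48 h, with 3 replicates per group and 12 libraries in all. The study designed these 3 siRNAs against the 3' end region of snaR-A, and their listed sequences overlap. The line and the transfection are shared by all 4 groups, the comparisons of each siRNA with scramble share the same 3 scramble libraries, and poly(A)+ RNA was sequenced after rRNA depletion. The comparison asks which mRNAs change when snaR-A is depleted.

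OXPHOS couples the oxidation of NADH and succinate to ATP synthesis across the inner mitochondrial membrane. Complex I takes electrons from NADH and complex II from succinate, complex III passes them from ubiquinol to cytochrome c, complex IV hands them to oxygen, and complex V uses the proton gradient to make ATP. Most subunits are encoded in the nucleus and imported, while a core set comes from mitochondrial DNA, so that both sets of mRNA are needed for a finished complex I, III, IV or V. Nuclear OXPHOS genes are known targets of the factors NRF1, GABPA (an ETS family factor, also called NRF2) and YY1.

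Library totals ran from 120.4M to 180.1M estimated counts, and the genes tested held 99.98% to 99.99% of each. Epithelial and kidney markers (KRT18, CDH1, KRT8, PAX2, EPCAM) and neural markers that HEK293 lines carry (VIM, NEFM, NEFL, ENO2, INA) were present, with 5 of 7 and 5 of 6 listed markers at 1 CPM or more in every group. Of 8 markers of other cell types only COL1A1 reached 1 CPM, CD3E was listed at 0 in scramble, and the summed level of the list lay between 13.2 and 27.3 CPM. No gene matched to a symbol had one that starts with SNAR, and 5381 gene IDs had no symbol in the annotation used. The level of the target RNA is therefore not given, and the study's own RT-qPCR of the knockdown is not used here. Levels are given in CPM, counts scaled to a common library size with TMM factors, changes are log2 fold changes against scramble with the standard error (SE) of the fit, and a gene is called at an adjusted p under 0.05 in edgeR's quasi-likelihood test, adjusted over all 21999 genes. Labels do not say whether replicates were separate cultures. The study's methods call the replicates biological and have them handled on 1 day, and p-values measure the spread between them.

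In scramble the OXPHOS genes were among the well expressed genes of these cells. Per kilobase of transcript, their median was 84.2 CPM per kb over 77 genes, beside 6.03 over the 15075 protein-coding genes tested. ATP5F1B, the catalytic beta subunit of ATP synthase, was highest at 548 ± 26.1 CPM per kb (SD, n = 3). UQCRH, the hinge protein of complex III, followed at 532 ± 7.13 CPM per kb, and these highest genes did not differ beyond their SD. COX7C of complex IV stood at 397 ± 16.7 CPM per kb and NDUFA1, a small membrane subunit of complex I, at 297 ± 7.12. The 4 genes of complex II ranged from 66.3 ± 3.22 for SDHA, the flavoprotein that oxidises succinate, to 110 ± 5.11 CPM per kb for SDHC, a membrane anchor. The lowest genes of complexes III, IV and V were UQCRB at 24.7 ± 0.962 CPM per kb, COX7B at 44 ± 0.454 and the readthrough gene ATP5MF-PTCD1 at 3.29 ± 0.272. UQCRB has a long canonical transcript in the annotation, and a level per length depends on which transcript cells use. Medians by complex were 62.2 for I, 78.0 for II, 67.7 for III, 168 for IV and 128 CPM per kb for V.

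**Figure D1:**
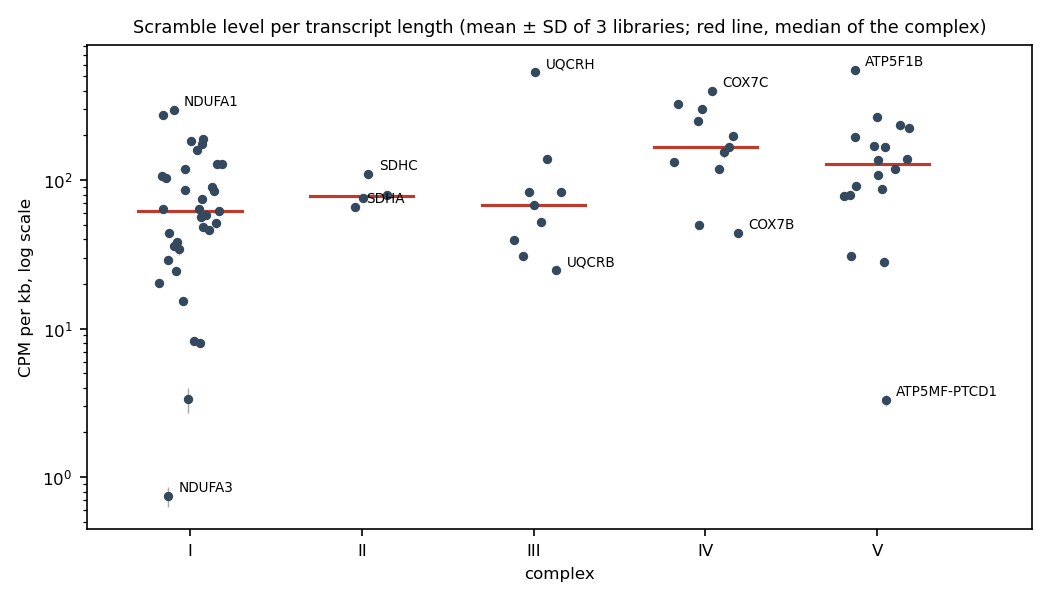
Level of each tested nuclear OXPHOS gene in scramble, as CPM per kilobase of transcript on a log axis (points, mean of 3 libraries; whiskers, SD; red lines, median of each complex). ATP5F1B and UQCRH are at the top, and NDUFA3, ATP5MF-PTCD1 and NDUFS3 are the lowest.

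Some genes were listed at levels too low to follow. NDUFA6, an accessory subunit of complex I, was listed at 0 in all 12 libraries, and ATP5MGL, a copy of the ATP synthase subunit g gene, had at most 17 counts in a library, so neither was tested. NDUFA3 and NDUFS3 passed the filter with 52 to 152 and 279 to 671 counts per library. NDUFA3 read 0.823, 0.654 and 0.625 CPM in scramble, 0.757, 0.795 and 1.02 with siRNA #1, 0.556, 0.398 and 0.624 with siRNA #2, and 0.645, 0.386 and 0.460 with siRNA #3. With siRNAs #1 and #3 it overlapped scramble, and with siRNA #2 it lay just below scramble. Its log2 fold changes were 0.29 ± 0.22, -0.42 ± 0.23 and -0.49 ± 0.23 (SE), none called. NDUFS3, a core subunit of complex I, read 3.63, 2.83 and 2.53 CPM in scramble, 2.36, 2.55 and 4.38 with siRNA #1, 3.03, 2.70 and 2.35 with siRNA #2, and 2.16, 2.40 and 2.25 with siRNA #3, with its highest value in siRNA #1 replicate 3 and no call. The table also holds 5381 gene IDs outside the annotation used, and whether reads of these genes were assigned to such IDs was not tested. Of the 7 nuclear core subunits of complex I, 6 have a row, and the seventh is not analysed here.

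The promoters of some of these genes hold sequence features that the choice by symbol did not use. RefSeq promoters (GRCh38.p14, 250 bases before to 50 after the start) were matched for 63 of the 79 genes, and short motifs for the known regulators were searched on both strands. The YY1 motif AANATGGCG was found in 15 of the 63 (23.8%) and in 4.91% of 15345 protein-coding promoters. Among the 11925 promoters of protein-coding genes tested here it was found in 6.04%. The NRF1 motif GCGCANGCG was found in 22 (34.9%), in 11.1% of all and in 13.5% of those of genes tested. The ETS motif CCGGAAG was found in 19 (30.2%), in 14.4% of all and in 17.3% of those of genes tested. No match of one motif overlapped a match of another, 2 genes (COX6A1 and ATP5PF) held all 3 motifs, and 22 genes held none. In 11 genes the ATG inside the YY1 motif is an annotated start codon, 17.5% of the 63 beside 1.89% of all protein-coding promoters. In mRNAs with very short leaders this arrangement is known as TISU, an element that serves both transcription and the start of translation. A match is a description of letters and not evidence of binding. The 30 bases around each such match are given on the gene strand, with the motif in capitals and the start codon as the ATG within it.
NDUFS3, chr11:47579079-47579108, plus strand: gcatctgagtAACATGGCGgcggcggcggt
NDUFS4, chr5:53560650-53560679, plus strand: tgcctgcagcAAGATGGCGgcggtgtcaat
NDUFS6, chr5:1801405-1801434, plus strand: ccagcggcgcAAAATGGCGgcggcgatgac
NDUFS7, chr19:1383914-1383943, plus strand: ggccgaggccAAGATGGCGgtgctgtcagg
NDUFA6, chr22:42090728-42090757, minus strand: atgctttggcAAGATGGCGgggagcggcgt
NDUFA7, chr19:8321342-8321371, minus strand: tcgcggacggAAGATGGCGtccgccacccg
NDUFA9, chr12:4649114-4649143, plus strand: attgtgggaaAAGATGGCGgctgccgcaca
SDHB, chr1:17054003-17054032, minus strand: gtcaggagccAAGATGGCGgcggtggtcgc
UQCRC1, chr3:48609604-48609633, minus strand: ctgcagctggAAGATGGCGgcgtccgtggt
UQCR10, chr22:29767386-29767415, plus strand: actgtgaagaAACATGGCGgccgcgacgtt
COX6A1, chr12:120438114-120438143, plus strand: gtccagatcaAAAATGGCGgtagttggtgt

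NRF1 and ETS matches of some of the genes that changed are shown in the same way, with the motif in capitals. Other called genes, among them COX6A1, UQCRC1 and COX4I1, hold matches that are not shown. NDUFA8 has overlapping NRF1 matches at the start site itself, and SDHA repeats the motif 4 times at a regular spacing.
NDUFA8, chr9:122159764-122159793, minus strand: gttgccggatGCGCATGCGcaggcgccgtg
NDUFA8, chr9:122159758-122159787, minus strand: ggatgcgcatGCGCAGGCGccgtgtggcac
SDHA, chr5:218144-218173, plus strand: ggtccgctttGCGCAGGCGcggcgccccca
SDHA, chr5:218193-218222, plus strand: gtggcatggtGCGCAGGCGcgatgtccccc
SDHA, chr5:218242-218271, plus strand: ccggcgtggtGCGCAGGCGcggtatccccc
SDHA, chr5:218291-218320, plus strand: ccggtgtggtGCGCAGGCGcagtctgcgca
NDUFS6, chr5:1801351-1801380, plus strand: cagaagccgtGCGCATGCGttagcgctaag
NDUFA9, chr12:4649025-4649054, plus strand: tcttggttagCGCTTGCGCagacaggcgag
The ETS matches of NDUFA13, ATP5MG, ATP5MK and SDHB, each called with at least 2 of the siRNAs, read as follows, and the first of ATP5MK reads as the motif on both strands.
NDUFA13, chr19:19516205-19516234, plus strand: ccgcccgggaCCGGAAGtgtgggatactgc
ATP5MG, chr11:118401597-118401626, plus strand: gcagcgggtcCTTCCGGcgggtgacattca
ATP5MK, chr10:103396619-103396648, minus strand: cagtgcaattCTTCCGGaagtgtgggcggg
ATP5MK, chr10:103396459-103396488, minus strand: gaggtggcttCTTCCGGccgggccgagagg
SDHB, chr1:17054141-17054170, minus strand: acccgggaaaCCGGAAGccgcctcccactt
Genes with and without a YY1 match had median log2 fold changes of 0.04 (14 tested genes) and -0.14 (48) with siRNA #1, 0.12 and 0.09 with siRNA #2, and 0.10 and 0.04 with siRNA #3. With and without the ETS motif (19 and 43 genes) they were -0.14 and -0.04 with siRNA #1, 0.10 and 0.08 with siRNA #2, and 0.02 and 0.05 with siRNA #3. With and without the NRF1 motif (22 and 40 genes) they were -0.06 and -0.10 with siRNA #1, 0.08 and 0.10 with siRNA #2, and 0.08 and 0.03 with siRNA #3. These medians describe the genes and were not tested. The mRNA of YY1 itself rose with the 3 siRNAs on average, by 0.23 ± 0.03 (SE, adjusted p = 7.1e-05 in edgeR), and that of GABPA read -0.07 ± 0.03 (SE, adjusted p = 0.0826 in edgeR) and that of NRF1 -0.09 ± 0.05 (SE, adjusted p = 0.137 in edgeR).

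More nuclear OXPHOS genes were called lower than higher with siRNA #1, and more were called higher than lower with siRNAs #2 and #3. With siRNA #1, 32 of 77 were called lower and 10 higher, where 23.3% and 21.9% of all genes tested were called lower and higher. With siRNA #2 the balance was the opposite, with 21 higher and 5 lower (all genes 13.7% and 12.1%). With siRNA #3, 20 were higher and 9 lower (all genes 16.5% and 13.0%). In the mean of the 3 siRNAs 16 were higher and 12 lower (all genes 15.6% and 16.6%). As shares of the 77, 41.6% were lower with siRNA #1, and 27.3% and 26% were higher with siRNAs #2 and #3. Among protein-coding genes alone 28.9% were lower with siRNA #1, and 18.7% and 22.8% higher with siRNAs #2 and #3. The OXPHOS share with siRNA #3 thus lay near that of protein-coding genes. The background counts many genes with fewer counts, at which a change of a given size is harder to call. Fewer cells of a kind and less RNA per cell cannot be told apart in bulk RNA.

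The changes were small. The median log2 fold change of the OXPHOS genes was -0.08 with siRNA #1, 0.08 with siRNA #2 and 0.05 with siRNA #3, beside -0.02, -0.03 and -0.03 over all genes. Over the protein-coding genes tested it was -0.03, -0.0025 and 0.02. With upper quartile scaling the siRNA #3 median of the OXPHOS genes turned to -0.0034. With siRNA #1, 53 of 77 genes had a log2 fold change below 0, and with siRNAs #2 and #3 60 and 53 had one above 0. Over all genes tested, 11424 of 21999 lay below 0 with siRNA #1. Relative to each gene's mean over the 12 libraries, the median OXPHOS gene stood at -0.17 (log2) in siRNA #1 replicate 3, at -0.04 and -0.08 in the other siRNA #1 libraries, and at or above -0.06 in every other library. Without siRNA #1 replicate 3 there were 21 lower calls, and without scramble replicates 2 or 3 there were 23 or 22. Higher calls with siRNA #2 numbered 12 without scramble replicate 1, 14 without scramble replicate 2 and 13 without siRNA #2 replicate 2. Higher calls with siRNA #3 numbered 13 without scramble replicate 1, 12 without siRNA #3 replicate 2 and 13 without its replicate 3.

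The sign of these small shifts depended on how libraries were scaled. TMM factors were 1.03 to 1.09 in the siRNA #1 libraries, 0.956 to 0.973 with siRNAs #2 and #3 and 1.01 to 1.03 in scramble. With library totals alone, a setting chosen after seeing the data, 24 OXPHOS genes were lower and 15 higher with siRNA #1, 9 lower and 12 higher with siRNA #2, and 16 lower and 11 higher with siRNA #3. The OXPHOS medians were then -0.03, 0.01 and -0.03, and the medians of all genes 0.03, -0.10 and -0.11. Between siRNA #1 and siRNA #2 this scaling moved the median of all genes from 0.03 to 0.15. Relative to the median of all genes, which cancels a library's scaling factor, the OXPHOS median lay at -0.06, 0.11 and 0.08 with siRNAs #1, #2 and #3. Without scramble replicate 1 these differences were -0.09, 0.07 and 0.03. The difference with siRNA #1 was -0.04 without its replicate 3. That with siRNA #3 was 0.03 over genes at a mean of 1 CPM or more, 0.13 with a GC content and length trend removed and 0.13 without its replicate 1. With total count scaling the balance of higher and lower calls with siRNA #3 turned, while the OXPHOS median still lay 0.08 above that of all genes. Shares of all genes called are not given here for total count scaling or the other alternatives. The counts of calls under them therefore have no background beside them.

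**Figure D2:**
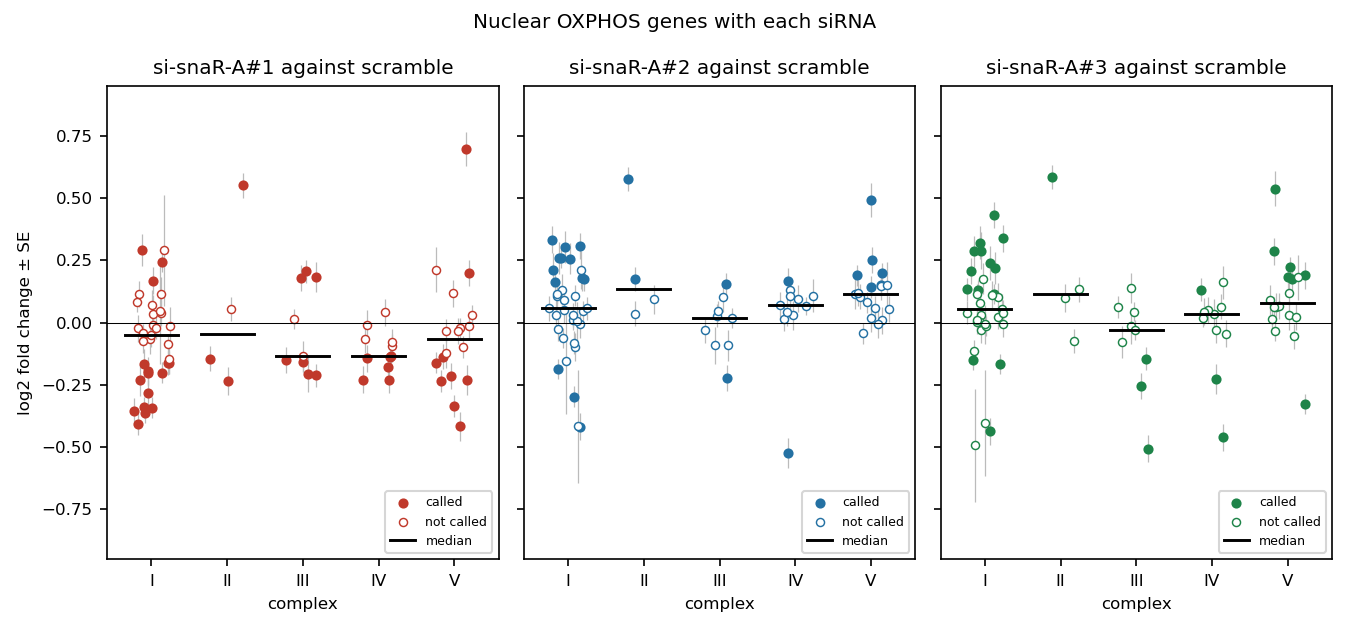
Log2 fold change against scramble of 76 of the 77 tested nuclear OXPHOS genes by complex, in a panel per siRNA (points, genes; whiskers, SE; filled points, called at adjusted p under 0.05; black lines, median over all tested genes of the complex). With siRNA #1 most genes lie below 0 and with siRNA #2 most lie above it, while SDHB and ATP5MF-PTCD1 lie above the other genes.

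The siRNAs were also compared with each other. Between siRNA #1 and siRNA #2, 36 of 77 OXPHOS genes were called lower with siRNA #1 and 5 higher (all genes 23.0% and 23.7%). Between siRNA #1 and siRNA #3, 40 were lower with siRNA #1 and 9 higher (all genes 24.8% and 23.8%). With total count scaling the former counts were 25 and 10 between siRNA #1 and siRNA #2 and 20 and 18 between siRNA #1 and siRNA #3. Between siRNAs #2 and #3 there were 10 genes higher and 4 lower with siRNA #2 (all genes 6.52% and 9.03%). The median difference was -0.12 between siRNA #1 and siRNA #2 and -0.13 between siRNA #1 and siRNA #3, beside 0.03 and 0.03 over all genes, and -0.0045 between siRNAs #2 and #3. Counting calls against scramble gene by gene, 18 of 77 were not called with any siRNA (all genes 40.2%). Lower with siRNA #1 and not called with the others were 22 (11.0%), and higher with siRNAs #2 and #3 but not with siRNA #1 were 8 (4.67%). Called in opposite directions by different siRNAs were 8 (8.41%), of which 6 were lower with siRNA #1 and higher with at least 1 other (5.06%).

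**Figure D3:**
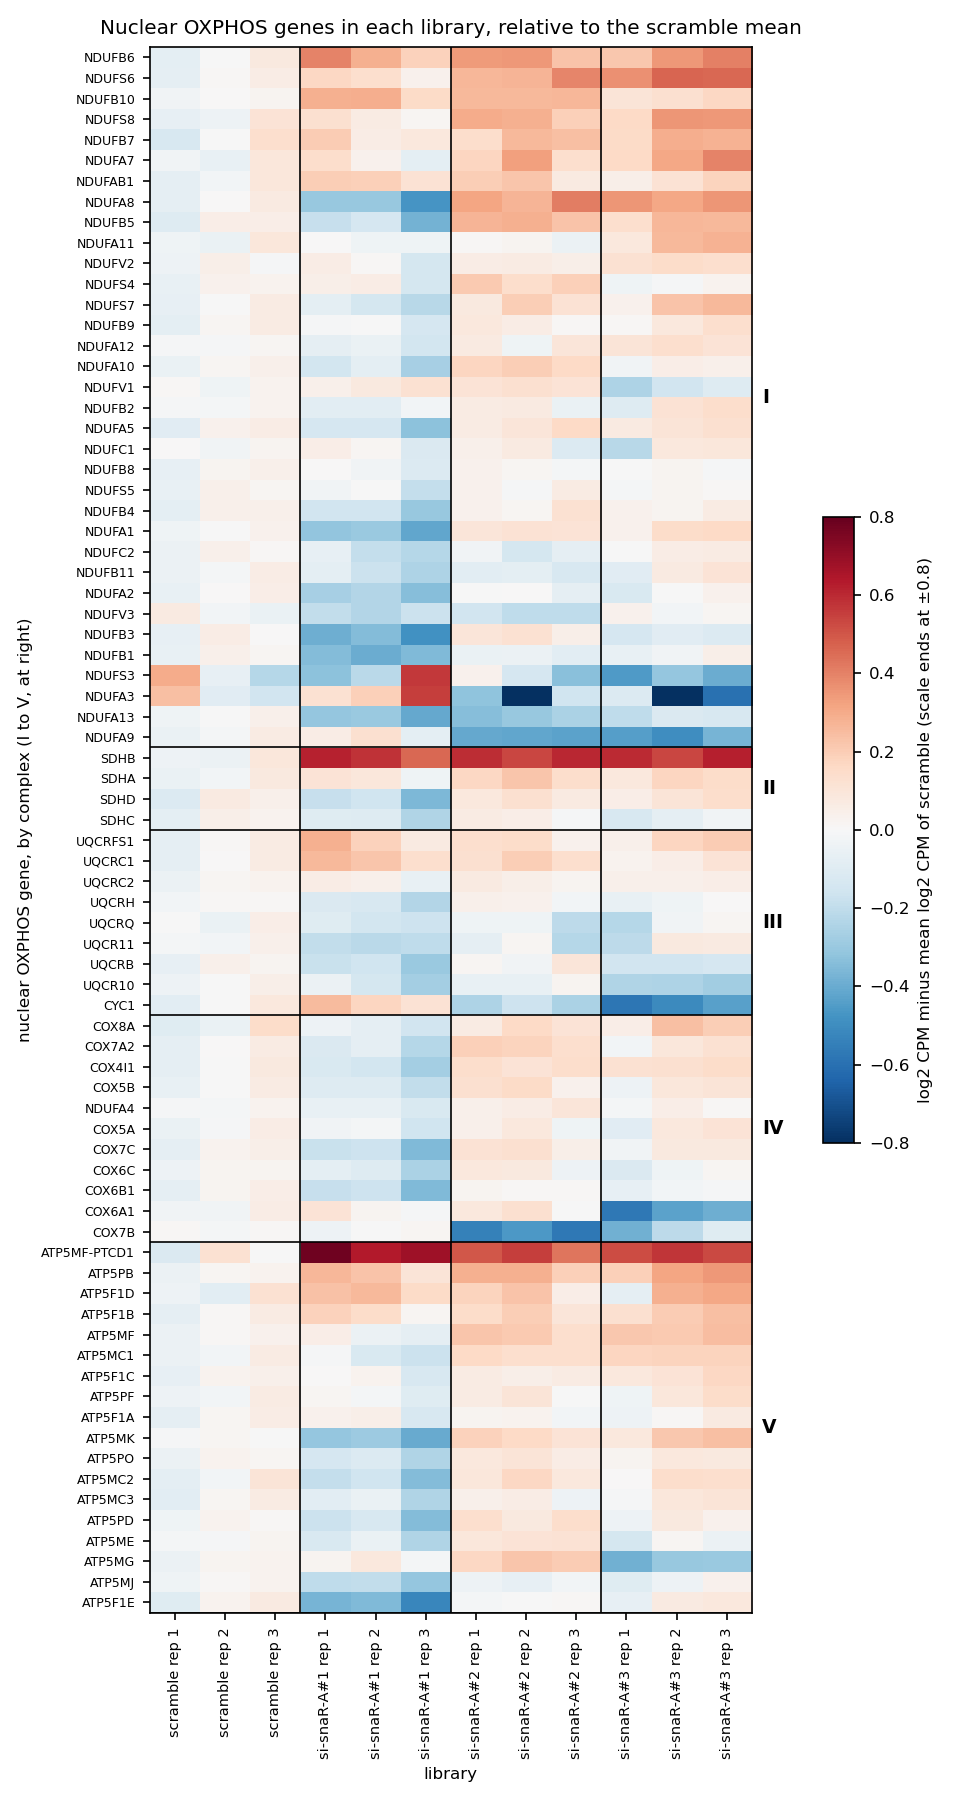
Log2 CPM of 76 of the 77 tested nuclear OXPHOS genes in each of the 12 libraries, minus the gene's mean log2 CPM over the scramble libraries (rows, genes by complex and by mean change; columns, libraries by group; colour scale ends at ±0.8). SDHB and ATP5MF-PTCD1 are higher in all 9 siRNA libraries, and siRNA #1 replicate 3 has the lowest values over the set, with a median of -0.17 against the mean of the 12 libraries.

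A few genes were called higher with every siRNA. Called higher with all 3 were 6 of 77 OXPHOS genes (all genes 5.16%) and called lower with all 3 was 1 (all genes 2.84%). These counts lie near the shares over all genes and are not read as a trait of the OXPHOS genes. SDHB (ENSG00000117118, chr1:17018664-17054032, minus strand) encodes the iron-sulfur subunit of complex II. SDHB read 75.0, 74.8 and 82.1 CPM in scramble, 118, 115 and 106 with siRNA #1, 116, 112 and 117 with siRNA #2, and 117, 112 and 119 with siRNA #3. All 9 siRNA libraries lay above all scramble libraries, and the siRNA groups overlapped one another. Of all genes tested, 25.6% had all siRNA #1 libraries above all scramble libraries and 27.3% had them below. With siRNA #2 these shares were 21.3% and 22%, and with siRNA #3 22% and 21.4%. Each statement that libraries of a gene do not overlap scramble is to be read beside these shares. For SDHB the log2 fold changes were 0.55 ± 0.05, 0.58 ± 0.05 and 0.58 ± 0.05 (SE) with siRNAs #1, #2 and #3, with adjusted p-values of 1.5e-06, 4.1e-06 and 3.0e-06 in edgeR. SDHB kept these calls under the alternatives planned and with total count scaling.

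The other genes higher with all 3 siRNAs moved less or are harder to assign. ATP5MF-PTCD1 (chr7:99419749-99466197, minus strand) is a readthrough of the ATP synthase subunit f gene into PTCD1, shares exons with both, and read 7.55, 8.90 and 8.15 CPM in scramble, 14.0, 12.7 and 13.1 with siRNA #1, 11.5, 12 and 11.0 with siRNA #2, and 11.8, 12.1 and 11.8 with siRNA #3. It was low in scramble and higher in each siRNA library, with log2 fold changes of 0.70 ± 0.07, 0.49 ± 0.07 and 0.54 ± 0.07 (SE) with siRNAs #1, #2 and #3, with adjusted p-values of 3.4e-06, 1.9e-04 and 8.2e-05 in edgeR. ATP5MF itself, with which it shares reads, changed by -0.02 ± 0.04, 0.19 ± 0.04 and 0.22 ± 0.04 (SE), and how reads were divided between them was not tested. ATP5PB, the b subunit of the peripheral stalk of ATP synthase, read 222, 231 and 233 CPM in scramble, 274, 268 and 245 with siRNA #1, 278, 279 and 261 with siRNA #2, and 261, 285 and 291 with siRNA #3. Every siRNA library was above scramble, and its log2 fold changes were 0.20 ± 0.05, 0.25 ± 0.05 and 0.29 ± 0.05 (SE) with siRNAs #1, #2 and #3, with adjusted p-values of 0.00797, 0.00351 and 0.00134 in edgeR. NDUFB6, a membrane arm subunit of complex I, read 37.3, 39.3 and 41.5 CPM in scramble, 51.8, 47.8 and 44.7 with siRNA #1, 49.8, 50 and 46.0 with siRNA #2, and 45.6, 50 and 51.9 with siRNA #3. NDUFB6 rose by 0.29 ± 0.06, 0.30 ± 0.06 and 0.32 ± 0.06 (SE) with siRNAs #1, #2 and #3, with adjusted p-values of 0.00251, 0.00377 and 0.00232 in edgeR. NDUFB10, which lies on the intermembrane side of complex I, read 116, 118 and 119.9 CPM in scramble, 144, 144 and 131 with siRNA #1, 141, 141 and 142 with siRNA #2, and 127, 129 and 132 with siRNA #3. NDUFB10 was higher by 0.24 ± 0.04, 0.26 ± 0.04 and 0.13 ± 0.04 (SE) with siRNAs #1, #2 and #3, with adjusted p-values of 2.8e-04, 3.9e-04 and 0.026 in edgeR. Its call with siRNA #3 was lost under upper quartile scaling (adjusted p = 0.0869), total count scaling (adjusted p = 0.168) or no filter on low counts (adjusted p = 0.0599) or without scramble replicate 1 or 2 or siRNA #3 replicate 2 or 3 (adjusted p = 0.062 to 0.0884), and that with siRNA #1 under correction for GC content and length (adjusted p = 0.111).

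NDUFA13 was the gene lower with all 3. NDUFA13 (chr19:19515736-19529054, plus strand), also known as GRIM-19, is a membrane subunit of complex I and shares exons with YJEFN3 on the same strand. NDUFA13 read 81.0, 82.8 and 85.2 CPM in scramble, 66.9, 67.4 and 62.4 with siRNA #1, 65.6, 67.4 and 69.6 with siRNA #2, and 72.1, 76.7 and 75.9 with siRNA #3. Every siRNA library lay below every scramble library, with siRNA #3 the nearest to scramble. The log2 fold changes of NDUFA13 were -0.34 ± 0.04, -0.30 ± 0.04 and -0.15 ± 0.04 (SE) with siRNAs #1, #2 and #3, with adjusted p-values of 2.4e-05, 2.0e-04 and 0.0174 in edgeR. With siRNA #3 the call was lost with a GC content and length trend removed (-0.05, adjusted p = 0.558), without scramble replicate 3 (adjusted p = 0.073) and without siRNA #3 replicate 1 (adjusted p = 0.0681).

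**Figure D4:**
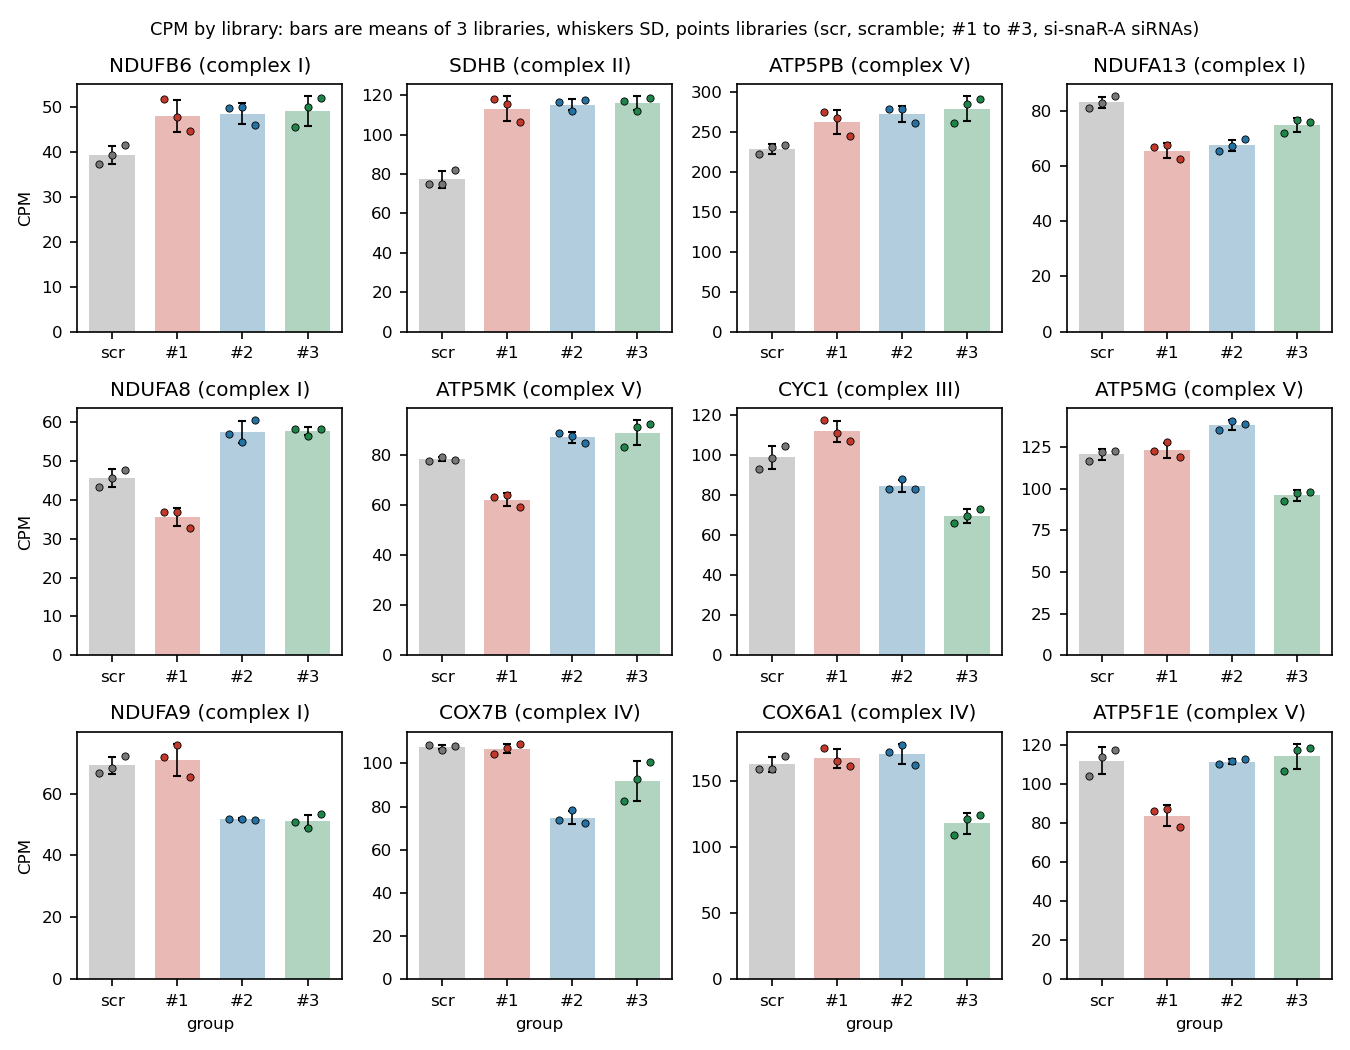
CPM of 12 nuclear OXPHOS genes by group (bars, mean of 3 libraries; whiskers, SD; points, libraries; axes start at 0). NDUFB6, SDHB and ATP5PB are higher with each siRNA and NDUFA13 is lower, NDUFA8 and ATP5MK are lower with siRNA #1 and higher with the others, and CYC1, ATP5MG, NDUFA9, COX7B, COX6A1 and ATP5F1E each move with particular siRNAs.

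Complex I has the most genes. Of the 29 accessory subunits tested, which surround the core, 3 higher and 13 lower were called with siRNA #1, 9 higher and 3 lower with siRNA #2 and 9 higher and 2 lower with siRNA #3. Over all genes, 21.9% were called higher and 23.3% lower with siRNA #1. With siRNA #2 these shares were 13.7% and 12.1%, and with siRNA #3 16.5% and 13.0%. The accessory medians were -0.07, 0.05 and 0.04. Core subunits carry the flavin, the iron-sulfur clusters and the quinone site. NDUFS8, which holds iron-sulfur clusters of the quinone module, rose by 0.26 ± 0.06 (SE, adjusted p = 0.00906 in edgeR) with siRNA #2 and by 0.29 ± 0.06 (SE, adjusted p = 0.00403 in edgeR) with siRNA #3. NDUFV1, the flavin subunit that binds NADH, read 116, 113 and 118 CPM in scramble, 119, 122 and 126 with siRNA #1, 124, 126 and 125 with siRNA #2, and 97.6, 104 and 108 with siRNA #3. Only the siRNA #3 libraries were below scramble, at -0.17 ± 0.04 (SE, adjusted p = 0.0077 in edgeR), and siRNA #2 read 0.11 ± 0.04 without a call. NDUFV2, an iron-sulfur partner of NDUFV1, rose with siRNA #3 by 0.13 ± 0.05 (SE, adjusted p = 0.0459 in edgeR). NDUFS7, next to the quinone site, read -0.15 ± 0.06, 0.13 ± 0.06 and 0.18 ± 0.06 (SE) with no call, and with a GC content and length trend removed it was called with each siRNA, at -0.38, 0.23 and 0.25 (edgeR adjusted p = 2.0e-04, 0.0127 and 0.00648). The call of NDUFV2 was lost under upper quartile scaling (adjusted p = 0.128), total count scaling (adjusted p = 0.219), no filter on low counts (adjusted p = 0.0646) or the replicate block (adjusted p = 0.0509) or without scramble replicate 1 or 3, siRNA #1 replicate 2, siRNA #2 replicate 1, 2 or 3 or siRNA #3 replicate 1, 2 or 3 (adjusted p = 0.0574 to 0.147).

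Several accessory subunits of complex I were called lower with siRNA #1 and not called with the others. NDUFB3, a membrane arm subunit, read 60.1, 65.5 and 63.1 CPM in scramble, 48.0, 49.4 and 45.0 with siRNA #1, 67.3, 68.3 and 64.9 with siRNA #2, and 57.1, 59.0 and 58.3 with siRNA #3. The siRNA #1 libraries lay below all others, at -0.41 ± 0.04 (SE, adjusted p = 8.0e-06 in edgeR) against scramble, and siRNA #3 read -0.11 ± 0.04, a call with total count scaling (adjusted p = 0.00135) and upper quartile scaling (adjusted p = 0.00578). NDUFB1, also of the membrane arm, fell to 29.4 ± 0.540 CPM from 37.8 ± 1.30 in scramble (SD, n = 3), -0.36 ± 0.04 (SE, adjusted p = 1.0e-05 in edgeR). NDUFA1 fell to 98.5 ± 4.42 from 125 ± 3.00 CPM, -0.34 ± 0.04 (SE, adjusted p = 2.9e-05 in edgeR), and stood at 135 ± 0.882 and 135 ± 6.23 with siRNAs #2 and #3 (SD, n = 3), where it was not called. Direct comparison of siRNA #1 with siRNA #2 gave -0.49 ± 0.04 (SE, adjusted p = 1.4e-06 in edgeR) for NDUFB3, -0.30 ± 0.04 (SE, adjusted p = 5.1e-05 in edgeR) for NDUFB1 and -0.45 ± 0.04 (SE, adjusted p = 2.6e-06 in edgeR) for NDUFA1.

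Another accessory subunit, NDUFA8 (chr9:122144058-122159779, minus strand), changed in opposite directions. Its protein has paired cysteines that are oxidised in the intermembrane space. NDUFA8 read 43.3, 45.7 and 47.8 CPM in scramble, 36.9, 37.0 and 32.8 with siRNA #1, 56.8, 54.9 and 60.5 with siRNA #2, and 58.3, 56.4 and 58.1 with siRNA #3. The siRNA #1 libraries lay below scramble and all libraries of the other siRNAs above it, with no overlap. Of all genes tested, 27.3% lay wholly below scramble with siRNA #1. Wholly above it lay 21.3% with siRNA #2 and 22% with siRNA #3. NDUFA8 changed by -0.36 ± 0.06, 0.33 ± 0.05 and 0.34 ± 0.05 (SE) with siRNAs #1, #2 and #3, with adjusted p-values of 1.6e-04, 6.5e-04 and 5.1e-04 in edgeR, and by -0.69 ± 0.06 (SE, adjusted p = 5.4e-07 in edgeR) between siRNA #1 and siRNA #2. NDUFB5, a membrane arm subunit, did likewise at -0.23 ± 0.06, 0.26 ± 0.06 and 0.22 ± 0.06 (SE) with siRNAs #1, #2 and #3, with adjusted p-values of 0.00996, 0.00899 and 0.0198 in edgeR. NDUFA10, which resembles a nucleoside kinase, fell with siRNA #1, -0.16 ± 0.05 (SE, adjusted p = 0.013 in edgeR), and rose with siRNA #2, 0.17 ± 0.05 (SE, adjusted p = 0.0164 in edgeR), with 0.02 ± 0.05 and no call with siRNA #3. NDUFB5 was not called with siRNA #1 under correction for GC content and length (adjusted p = 0.343), nor with siRNA #3 under total count scaling (adjusted p = 0.055) or correction for GC content and length (adjusted p = 0.109) or without scramble replicate 1 or siRNA #3 replicate 2 or 3 (adjusted p = 0.0585 to 0.087). NDUFA10 was not called with siRNA #1 without scramble replicate 3 or siRNA #1 replicate 3 (adjusted p = 0.0608 and 0.0501), nor with siRNA #2 under total count scaling (adjusted p = 0.0564) or without scramble replicate 1 or siRNA #2 replicate 2 (adjusted p = 0.0698 and 0.0588).

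Other complex I genes set siRNAs #2 and #3 apart from scramble and not siRNA #1. NDUFA9 (chr12:4649095-4694317, plus strand), an accessory subunit that binds NADPH near the quinone site, read 66.7, 68.4 and 72.2 CPM in scramble, 71.9, 75.6 and 65.3 with siRNA #1, 51.9, 51.9 and 51.4 with siRNA #2, and 50.9, 49.0 and 53.3 with siRNA #3. Libraries of siRNAs #2 and #3 fell below both scramble and siRNA #1, which overlapped. NDUFA9 changed by 0.04 ± 0.05, -0.42 ± 0.05 and -0.44 ± 0.05 (SE) with siRNAs #1, #2 and #3, with adjusted p-values of 0.604, 9.0e-05 and 5.4e-05 in edgeR. NDUFS6, a zinc-binding subunit at the junction of the arms, read 31.7, 33.5 and 34.6 CPM in scramble, 37.4, 36.5 and 34.1 with siRNA #1, 39.9, 40.1 and 43.5 with siRNA #2, and 42.9, 45.8 and 45.8 with siRNA #3. NDUFS6 was highest on average with siRNA #3, which overlapped siRNA #2, and its changes were 0.11 ± 0.05, 0.31 ± 0.05 and 0.43 ± 0.05 (SE) with siRNAs #1, #2 and #3, with adjusted p-values of 0.0963, 8.3e-04 and 5.4e-05 in edgeR. The 5 genes called lower with siRNA #2 were NDUFA9, NDUFA13, NDUFV3, CYC1 and COX7B, and NDUFV3, a small subunit beside the flavin module, changed by -0.19 ± 0.04 (SE) with it and by -0.20 ± 0.04 with siRNA #1. Unlike NDUFA9 and NDUFS6, NDUFV3 overlapped scramble with siRNA #3, at 45.9 ± 0.883 CPM beside 45.6 ± 2.12 in scramble (SD, n = 3).

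In complex II, SDHB was the gene that moved with every siRNA. SDHA rose with siRNA #2 by 0.18 ± 0.05 (SE, adjusted p = 0.0182 in edgeR) and in the mean of the siRNAs by 0.12 ± 0.04 (SE, adjusted p = 0.035 in edgeR). The membrane anchors SDHC and SDHD, which bind ubiquinone, both fell with siRNA #1. SDHD read 98.9, 112 and 109.8 CPM in scramble, 93.9, 95.4 and 83.4 with siRNA #1, 113, 116 and 112 with siRNA #2, and 111, 115 and 118 with siRNA #3. The siRNA #1 libraries were lowest, siRNA #3 overlapped scramble, and siRNA #2 lay narrowly above scramble, at 112.3 CPM or more. SDHD changed by -0.23 ± 0.06 (SE, adjusted p = 0.0045 in edgeR) with siRNA #1. SDHC changed by -0.14 ± 0.05 (SE, adjusted p = 0.029 in edgeR) with it. SDHD was not called under correction for GC content and length (adjusted p = 0.372), and SDHC not under RLE scaling (adjusted p = 0.0521), total count scaling (adjusted p = 0.0612) or correction for GC content and length (adjusted p = 0.109) or without scramble replicate 2 or 3 or siRNA #1 replicate 3 (adjusted p = 0.103 to 0.112). SDHA was not called with siRNA #2 under total count scaling (adjusted p = 0.069) or without scramble replicate 1 or 2 or siRNA #2 replicate 2 (adjusted p = 0.0648 to 0.0766). Its call in the mean was lost under upper quartile scaling (adjusted p = 0.0589), total count scaling (adjusted p = 0.0514), no filter on low counts (adjusted p = 0.0586) or the replicate block (adjusted p = 0.053) or without scramble replicate 1 or 2, siRNA #1 replicate 1, siRNA #2 replicate 1 or 2 or siRNA #3 replicate 2 (adjusted p = 0.0519 to 0.174). Of the 4 mRNAs of the complex, 1 was thus higher and 2 lower with siRNA #1 (all genes 21.9% and 23.3%).

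In complex III the siRNAs diverged at CYC1, the gene for cytochrome c1, which passes electrons to cytochrome c. CYC1 read 93.2, 98.6 and 104 CPM in scramble, 118, 111 and 107 with siRNA #1, 83.1, 88.0 and 82.8 with siRNA #2, and 66.1, 69.4 and 73.1 with siRNA #3. Libraries of siRNA #1 were the highest, those of siRNA #3 the lowest with no overlap, and siRNA #2 lay between scramble and siRNA #3. CYC1 changed by 0.18 ± 0.05, -0.22 ± 0.05 and -0.51 ± 0.05 (SE) with siRNAs #1, #2 and #3, with adjusted p-values of 0.0138, 0.0077 and 1.7e-05 in edgeR. Its rise with siRNA #1 was not called without scramble replicate 1 (adjusted p = 0.062), without siRNA #1 replicate 1 (adjusted p = 0.0617) or with a GC content and length trend removed (0.05, adjusted p = 0.436), and its fall with siRNA #2 was not called without scramble replicate 3 (adjusted p = 0.0573). UQCRC1, a core protein, rose by 0.21 ± 0.04 (SE, adjusted p = 0.00221 in edgeR) with siRNA #1 and 0.15 ± 0.04 (SE, adjusted p = 0.0234 in edgeR) with siRNA #2. UQCRFS1, the Rieske iron-sulfur protein, rose with siRNA #1 by 0.18 ± 0.06 (SE, adjusted p = 0.0266 in edgeR). The small subunits UQCRB, UQCRH, UQCR10 and UQCR11 were lower with siRNA #1, at -0.21 ± 0.05, -0.16 ± 0.04, -0.15 ± 0.05 and -0.21 ± 0.07 (SE). UQCR10 read 74.1, 76.1 and 78.7 CPM in scramble, 74.0, 69.2 and 63.1 with siRNA #1, 73.1, 73.4 and 77.5 with siRNA #2, and 64.6, 64.3 and 63.0 with siRNA #3. With siRNA #3 UQCR10 fell to its lowest levels, -0.26 ± 0.05 (SE, adjusted p = 0.00249 in edgeR), and the groups did not overlap there. By complex, 3 of 9 genes were higher and 4 lower with siRNA #1 (all genes 21.9% and 23.3%). With siRNA #2, 1 was higher and 1 lower (all genes 13.7% and 12.1%). With siRNA #3, 3 were lower (all genes 13.0%, and 16.5% higher). There 1 more gene was higher at an unadjusted p under 0.05, and none was called higher by edgeR's tests or DESeq2. The call of UQCR10 with siRNA #1 was lost under RLE scaling (adjusted p = 0.0521), total count scaling (adjusted p = 0.0779) or correction for GC content and length (adjusted p = 0.0586) or without scramble replicate 2 or 3 or siRNA #1 replicate 2 or 3 (adjusted p = 0.0672 to 0.124). The call of UQCR11 was lost under total count scaling (adjusted p = 0.104) or without scramble replicate 1, 2 or 3 or siRNA #1 replicate 1, 2 or 3 (adjusted p = 0.0599 to 0.104), and that of UQCRB under correction for GC content and length (adjusted p = 0.0835). UQCRC1 was not called with siRNA #2 under upper quartile scaling (adjusted p = 0.0559) or total count scaling (adjusted p = 0.114) or without scramble replicate 1 or 2 or siRNA #2 replicate 2 (adjusted p = 0.0627 to 0.1). UQCRFS1 was not called without scramble replicate 1 or 2 or siRNA #1 replicate 1 or 2 (adjusted p = 0.0556 to 0.12).

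In complex IV 6 of 11 genes were lower with siRNA #1, where 23.3% of all genes were lower and 21.9% higher. No gene was higher in the quasi-likelihood test, the exact test of edgeR or DESeq2, nor at an unadjusted p under 0.05 (0 genes). COX6B1 and COX7C, small subunits on the outside of the catalytic core, were among these, at -0.23 ± 0.05 (SE, adjusted p = 0.00183 in edgeR) and -0.23 ± 0.05 (SE, adjusted p = 0.00355 in edgeR). COX7C read 238, 254 and 257 CPM in scramble, 220.5, 222 and 196 with siRNA #1, 270.3, 273 and 258 with siRNA #2, and 245, 263 and 264 with siRNA #3. The siRNA #1 libraries were below scramble, siRNA #3 overlapped scramble, and siRNA #2 lay slightly above it. COX4I1, a subunit with a regulatory role, was lower with siRNA #1, at -0.18 ± 0.05 (SE, adjusted p = 0.00685 in edgeR) and rose with siRNA #3 at 0.13 ± 0.05 (SE, adjusted p = 0.0499 in edgeR), while COX7A2 fell with siRNA #1 at -0.14 ± 0.05 (SE, adjusted p = 0.0458 in edgeR) and rose with siRNA #2 at 0.17 ± 0.05 (SE, adjusted p = 0.0331 in edgeR). The direct comparisons were -0.31 ± 0.05 (SE, adjusted p = 1.1e-04 in edgeR) for COX4I1 between siRNA #1 and siRNA #3 and -0.30 ± 0.05 (SE, adjusted p = 3.5e-04 in edgeR) for COX7A2 between siRNA #1 and siRNA #2. COX7C was not called under correction for GC content and length (adjusted p = 0.151). The fall of COX7A2 was not called under RLE scaling (adjusted p = 0.0745), total count scaling (adjusted p = 0.124), DESeq2 (adjusted p = 0.0621), the replicate block (adjusted p = 0.0583) or correction for GC content and length (adjusted p = 0.0839) or without scramble replicate 2 or 3, siRNA #1 replicate 1 or 3, siRNA #2 replicate 1, 2 or 3 or siRNA #3 replicate 2 (adjusted p = 0.0566 to 0.188), and its rise not under upper quartile scaling (adjusted p = 0.0753), total count scaling (adjusted p = 0.119) or correction for GC content and length (adjusted p = 0.117) or without scramble replicate 1 or 2 or siRNA #2 replicate 1, 2 or 3 (adjusted p = 0.053 to 0.129). COX4I1 was not called with siRNA #3 under upper quartile scaling (adjusted p = 0.156), total count scaling (adjusted p = 0.272), no filter on low counts (adjusted p = 0.0936) or the replicate block (adjusted p = 0.0812) or without scramble replicate 1 or 2, siRNA #1 replicate 2, siRNA #2 replicate 1, 2 or 3 or siRNA #3 replicate 1, 2 or 3 (adjusted p = 0.0636 to 0.194).

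Other falls in complex IV came with siRNA #2 or siRNA #3. COX7B (chrX:77899440-77907376, plus strand), a small membrane subunit, read 108, 106 and 108 CPM in scramble, 104, 107 and 109 with siRNA #1, 73.9, 78.2 and 72.2 with siRNA #2, and 82.4, 92.9 and 101 with siRNA #3. Scramble and siRNA #1 overlapped, siRNA #2 was lowest, and siRNA #3 ranged widely in between. COX7B changed by -0.01 ± 0.06, -0.52 ± 0.06 and -0.23 ± 0.06 (SE) with siRNAs #1, #2 and #3, with adjusted p-values of 0.919, 3.9e-05 and 0.0121 in edgeR. COX6A1 (chr12:120438090-120440737, plus strand), the ubiquitous form of subunit VIa, read 159.5, 159 and 169.5 CPM in scramble, 176, 165 and 162 with siRNA #1, 172, 178 and 162 with siRNA #2, and 109, 121 and 124 with siRNA #3. The siRNA #3 libraries lay below every other library, and the remaining groups overlapped. COX6A1 changed by 0.04 ± 0.05, 0.07 ± 0.05 and -0.46 ± 0.05 (SE) with siRNAs #1, #2 and #3, with adjusted p-values of 0.583, 0.402 and 4.5e-05 in edgeR, and by 0.53 ± 0.05 (SE, adjusted p = 4.8e-05 in edgeR) between siRNAs #2 and #3. COX6A1 shares its locus with another gene on the same strand and has 7 pseudogenes of its name, so its assignment of reads is uncertain.

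In complex V, 2 higher and 7 lower of 18 tested genes were called with siRNA #1 (all genes 21.9% and 23.3%). With siRNA #2, 6 were higher (all genes 13.7%, and 12.1% lower). With siRNA #3, 6 were higher and 1 lower (all genes 16.5% and 13.0%). With siRNA #2 no gene of complex V was lower by either edgeR test, by DESeq2 or at an unadjusted p under 0.05 (0 genes). In the catalytic head, ATP5F1B rose with siRNA #3 by 0.19 ± 0.05 (SE, adjusted p = 0.0195 in edgeR) and in the mean of the siRNAs by 0.15 ± 0.04 (SE, adjusted p = 0.021 in edgeR). ATP5F1E, the epsilon subunit of the central stalk, read 104, 114 and 118 CPM in scramble, 86.1, 87.3 and 77.8 with siRNA #1, 110.2, 112 and 112 with siRNA #2, and 106, 117 and 118 with siRNA #3. The siRNA #1 libraries lay below all others, which overlapped, and ATP5F1E changed by -0.42 ± 0.06, -0.01 ± 0.06 and 0.03 ± 0.06 (SE) with siRNAs #1, #2 and #3, with adjusted p-values of 6.1e-05, 0.963 and 0.751 in edgeR. The c ring is encoded by ATP5MC1, ATP5MC2 and ATP5MC3, whose mature proteins are identical. ATP5MC1 changed by -0.10 ± 0.04, 0.14 ± 0.04 and 0.18 ± 0.04 (SE) with siRNAs #1, #2 and #3, with adjusted p-values of 0.086, 0.0301 and 0.00896 in edgeR. ATP5MC2 changed by -0.23 ± 0.06, 0.11 ± 0.06 and 0.09 ± 0.06 (SE) with siRNAs #1, #2 and #3, with adjusted p-values of 0.00693, 0.194 and 0.298 in edgeR. ATP5MC3 read -0.12 ± 0.06, 0.02 ± 0.06 and 0.06 ± 0.06 (SE) with no call. The c ring genes were thus called lower once, for ATP5MC2 with siRNA #1, and higher for ATP5MC1 with siRNAs #2 and #3. The call of ATP5MC1 with siRNA #2 was lost under upper quartile scaling (adjusted p = 0.0766) or total count scaling (adjusted p = 0.163) or without scramble replicate 1 or 2 or siRNA #2 replicate 1, 2 or 3 (adjusted p = 0.0664 to 0.111), and that with siRNA #3 under total count scaling (adjusted p = 0.0538). ATP5F1B was not called with siRNA #3 under total count scaling (adjusted p = 0.0612) or without scramble replicate 1 or siRNA #3 replicate 2 or 3 (adjusted p = 0.0612 to 0.086), and not in the mean under no filter on low counts (adjusted p = 0.0532) or without scramble replicate 1 or 2 (adjusted p = 0.127 and 0.0632).

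Membrane subunits of ATP synthase that join monomers into dimers diverged. ATP5MK (chr10:103389041-103396492, minus strand), also known as DAPIT, read 77.8, 79.5 and 78.2 CPM in scramble, 63.3, 64.1 and 59.3 with siRNA #1, 89.0, 87.5 and 84.8 with siRNA #2, and 83.2, 91.2 and 92.6 with siRNA #3. Scramble libraries lay close together, siRNA #1 below them and both other siRNAs above them. ATP5MK changed by -0.33 ± 0.05, 0.15 ± 0.05 and 0.18 ± 0.05 (SE) with siRNAs #1, #2 and #3, with adjusted p-values of 5.6e-05, 0.0272 and 0.00915 in edgeR. ATP5MG (chr11:118401346-118433278, plus strand), the g subunit, read 117, 122 and 123 CPM in scramble, 123, 128 and 119 with siRNA #1, 135, 141 and 139 with siRNA #2, and 92.5, 97.5 and 98.2 with siRNA #3. The siRNA #2 libraries were above scramble (all genes 21.3%) and the siRNA #3 libraries below it (all genes 21.4%), with no overlap. ATP5MG changed by 0.03 ± 0.04, 0.20 ± 0.04 and -0.33 ± 0.04 (SE) with siRNAs #1, #2 and #3, with adjusted p-values of 0.56, 0.00267 and 5.8e-05 in edgeR, and by 0.53 ± 0.04 (SE, adjusted p = 5.1e-06 in edgeR) between siRNAs #2 and #3. ATP5MK was not called with siRNA #2 under upper quartile scaling (adjusted p = 0.0738), total count scaling (adjusted p = 0.121) or correction for GC content and length (adjusted p = 0.0754) or without scramble replicate 1 or 2 or siRNA #2 replicate 1 or 2 (adjusted p = 0.0543 to 0.0977). Taking out a GC content and length trend added a call for ATP5MG with siRNA #1 (0.20, adjusted p = 0.00234). ATP5MJ, a small membrane subunit, was lower with siRNA #1, at -0.24 ± 0.04 (SE, adjusted p = 5.6e-04 in edgeR). ATP5MG has 8 pseudogenes of its name and overlaps genes on both strands.

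The subunits encoded by mitochondrial DNA were read in the same libraries. Of the 13 genes, 7 were lower with siRNA #1 and 2 with siRNA #2, and the quasi-likelihood test of edgeR called none with siRNA #3, where 1 gene was lower at an unadjusted p under 0.05 and in the exact test of edgeR. None was higher with any siRNA. Their medians were -0.35, -0.07 and -0.13 with siRNAs #1, #2 and #3. Over all genes 23.3%, 12.1% and 13.0% were called lower with siRNAs #1, #2 and #3, and 21.9%, 13.7% and 16.5% higher. MT-CO2, a catalytic subunit of complex IV, changed by -0.58 ± 0.15 (SE, adjusted p = 0.00626 in edgeR) with siRNA #1 and MT-ND1, of complex I, by -0.58 ± 0.15 (SE, adjusted p = 0.00675 in edgeR). Their summed level varied between replicates far more than that of the nuclear genes. It was 38520 ± 5405 CPM in scramble, 28920 ± 3333 with siRNA #1, 36630 ± 3771 with siRNA #2 and 35550 ± 7213 with siRNA #3 (SD, n = 3). In CPM the siRNA #1 libraries were below all scramble libraries and the other groups overlapped scramble. As a share of all counts, with no scaling factor, siRNA #1 overlapped scramble. The shares by replicate were 3.13%, 2.62% and 3.41% with siRNA #1 and 4.03%, 4.38% and 3.33% in scramble. The nuclear genes summed to 8855 ± 322 CPM in scramble, 8616 ± 434, 9413 ± 142 and 9254 ± 329.5 with siRNAs #1, #2 and #3 (SD, n = 3). These sums overlapped between scramble, siRNA #1 and siRNA #3, while all siRNA #2 libraries were above scramble. As a share of all counts, with no scaling factor, the nuclear genes took 0.900% ± 0.0294 in scramble, 0.908% ± 0.0214, 0.910% ± 0.0136 and 0.891% ± 0.0237 with siRNAs #1, #2 and #3 (SD, n = 3), and these shares overlapped between all groups. With ATP5F1B at 964 ± 45.9 CPM in scramble, the sum follows a few abundant genes where the median counts each gene alike.

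**Figure D5:**
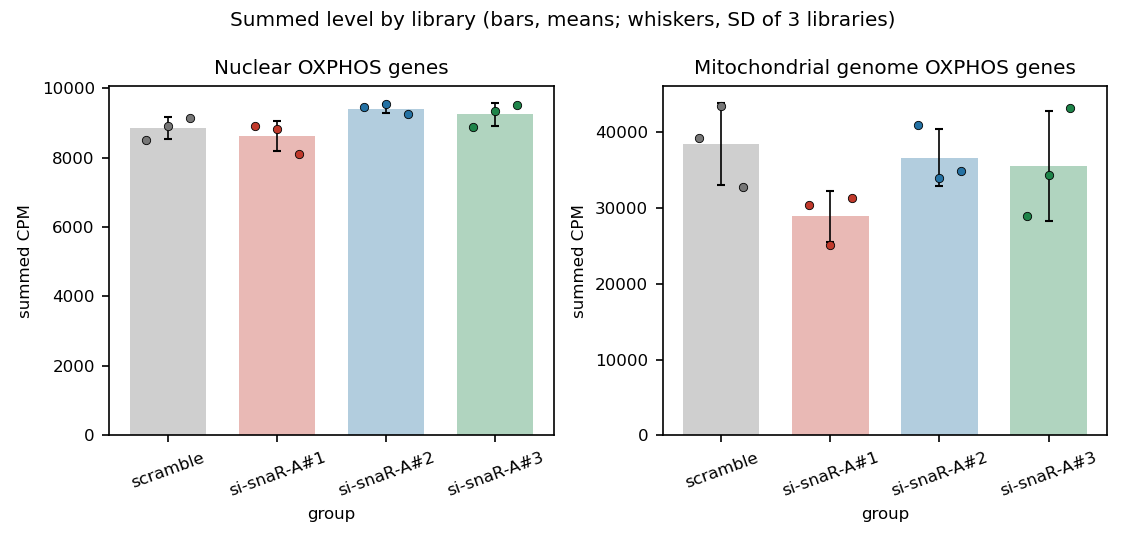
Summed CPM of the 79 nuclear OXPHOS genes (left) and of the 13 OXPHOS genes of mitochondrial DNA (right) by group (bars, mean; whiskers, SD; points, the 3 libraries). Nuclear sums stay within 8117 to 9532 CPM in all libraries, while the mitochondrial sums range from 25110 to 43480. They are lowest on average with siRNA #1, whose libraries overlap those of siRNA #3.

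Assembly factors, which build the complexes without staying in them, moved both ways. Of 57 factors 18 higher and 24 lower were called with siRNA #1 (all genes 21.9% and 23.3%). With siRNA #2, 17 were higher and 9 lower (all genes 13.7% and 12.1%). With siRNA #3, 13 were higher and 7 lower (all genes 16.5% and 13.0%). The medians of the factors were -0.03, 0.03 and 0.03 with siRNAs #1, #2 and #3. In the mean of the siRNAs UQCC3, an assembly factor of complex III, rose by 0.55 ± 0.07 (SE, adjusted p = 5.3e-05 in edgeR) and FMC1, of complex V, by 0.53 ± 0.04 (SE, adjusted p = 1.3e-06 in edgeR). COX16, of complex IV, changed by -0.57 ± 0.05 (SE, adjusted p = 1.9e-06 in edgeR) and TMEM126A, of complex I, by -0.39 ± 0.04 (SE, adjusted p = 2.1e-05 in edgeR).

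OXPHOS mRNAs are short, and their length and base composition moved with some of these values. The median transcript of the tested genes was 758 bases, beside 3352 for protein-coding genes, and GC content was 47.5% beside 48.7%. Across the 77 genes, which are not replicates and share libraries, Spearman's rho of the log2 fold change was 0.24 with length and 0.30 with GC content for siRNA #1, -0.04 and 0.10 for siRNA #2, and -0.02 and 0.14 for siRNA #3. Over 15075 protein-coding genes rho with GC content was 0.26, -0.20 and -0.18 with the siRNAs in the same order. The 35 OXPHOS genes under 700 bases had a median of -0.10 with siRNA #1, where the 363 protein-coding genes of that length had -0.05. With a GC content and length trend removed, 27 OXPHOS genes were lower and 10 higher with siRNA #1, 5 lower and 23 higher with siRNA #2, and 8 lower and 24 higher with siRNA #3. Exons of 43 of the 79 genes overlap another gene and 50 have pseudogenes of their name, up to 17, so that reads could be divided between copies. The use of strand in assigning reads is not given in the sources used here.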

How the data were processed

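Poly(A)+ RNA of HEK293T cells was sequenced in 12 libraries. The authors trimmed reads with TrimGalore, estimated transcript abundance with Salmon and deposited 1 table of estimated counts per gene, with hg38 named as the build per the labels. The transcriptome release, the transcript-to-gene step and the use of strand are not given in the sources used here. Estimated counts were rounded and genes kept by filterByExpr. Fits used TMM factors and the quasi-likelihood test of edgeR 4.0.16 (R 4.3.3) over all 4 groups, with Benjamini-Hochberg adjustment over the genes tested and SE taken as the log2 fold change over the square root of F. The mean of the 3 siRNAs was a contrast of the same fit. Alternatives were RLE, upper quartile and total count scaling, no filter, a filter at 1 CPM, the exact test of edgeR, DESeq2 1.42.0, a replicate block, taking out a trend on GC content and length, and leaving out each library. The fit was tested on simulated data. Gene types, coordinates and canonical transcript lengths came from GENCODE release 44 (GRCh38) and promoters from RefSeq.

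The members, the lists, the motifs and the tests were chosen with earlier results of these data known. Genes named are the 2 largest rises and falls among called genes of each complex and list (lists in the mean of the siRNAs only), those called alike with all 3 siRNAs or in opposite directions and between those siRNAs, the extremes per length, the c ring and core genes, and those not tested. NDUFV3, ATP5MF, MT-CO2, MT-ND1, YY1, GABPA and NRF1 were named after their values were seen. No per-sample column was left out, and results of some genes are not reported here. Replicate numbers did not pair the libraries over all genes: deviations of libraries with the same number correlated at -0.066 to 0.085 over 18 pairs. Over the OXPHOS genes the range was -0.83 to 0.79 with the same number and -0.86 to 0.85 with other numbers. Calls of different OXPHOS genes are therefore not to be read as independent of each other.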

Additional observations from a re-analysis of the deposited data

How the results depend on the processing

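With total count scaling, chosen after seeing the data, calls higher and lower were 12 and 9 with siRNA #2, 11 and 16 with siRNA #3, and 19 lower in the mean of the siRNAs. Between siRNAs it gave 10 higher with siRNA #1 than with siRNA #2, and 18 higher and 20 lower than with siRNA #3. It gave 2 genes lower with all 3 and medians of -0.0255, 0.0102 and -0.0278 with siRNAs #1, #2 and #3. Upper quartile scaling turned the siRNA #3 median to -0.0034. With a GC content and length trend removed, 7 genes were lower in the mean and 0 with all 3 siRNAs. The counts stand without shares of all genes under the same settings, and the cause of these changes was not tested. The replicate block gave 13 higher and 8 lower in the mean, where 16 and 12 were called without it, and 9 calls of named genes were lost with it and none gained, while the check in the processing did not pair the replicate numbers. The exact test gave no mean of the siRNAs.

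Leaving out 1 library at a time, higher and lower calls ranged from 7 to 12 and 21 to 34 with siRNA #1, 12 to 28 and 4 to 5 with siRNA #2, 12 to 24 and 7 to 10 with siRNA #3, and 7 to 18 and 6 to 13 in the mean. They ranged from 3 to 5 and 33 to 40 between siRNA #1 and siRNA #2, 6 to 9 and 33 to 44 between siRNA #1 and siRNA #3, and 5 to 11 and 2 to 5 between siRNAs #2 and #3. Genes called with all 3 ranged from 5 to 8 higher and 0 to 1 lower, and medians from -0.10 to -0.06, 0.06 to 0.11, 0.02 to 0.09 and -0.02 to 0.03 with siRNA #1, siRNA #2, siRNA #3 and their mean. Without scramble replicate 3 or siRNA #3 replicate 1 no gene was lower with all 3 in edgeR. Without siRNA #1 replicate 3, 3 genes were higher with siRNA #1 than with siRNA #2. Between siRNA #2 and siRNA #3, 6, 5 and 6 genes were higher without siRNA #2 replicate 1, its replicate 3 or siRNA #3 replicate 1, and 2 were lower without siRNA #3 replicate 2 or 3. Higher calls in the mean numbered 7 without scramble replicate 1 and 9 without scramble replicate 2, and lower calls 6 without scramble replicate 2 or 3. Alternatives were compared for named nuclear OXPHOS genes, in 176 results. None reversed a call. Calls lost numbered 18, 17 and 9 with total count scaling, GC content and length removal and upper quartile scaling, 20, 22 and 14 without scramble replicates 1, 2 and 3, and 6 to 14 without a siRNA library.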

Other observations

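Genes that feed or serve the OXPHOS complexes were read in the same fit. The counts below stand beside shares over all genes of 21.9% higher and 23.3% lower with siRNA #1. Those shares were 13.7% and 12.1% with siRNA #2, and 16.5% and 13.0% with siRNA #3. Of 17 genes for electron carriers and coenzyme Q synthesis, 6 higher and 5 lower with siRNA #1, 8 higher and 3 lower with siRNA #2 and 10 higher and 2 lower with siRNA #3 were called, and in the mean of the siRNAs COQ10B, a coenzyme Q binding protein, rose by 0.37 ± 0.04 (SE, adjusted p = 2.0e-05 in edgeR), PDSS2, which makes the coenzyme Q tail, by 0.34 ± 0.06 (SE, adjusted p = 9.0e-04 in edgeR), while COQ5 and COQ9 were lower, at -0.13 ± 0.04 (SE, adjusted p = 0.0315 in edgeR) and -0.12 ± 0.03 (SE, adjusted p = 0.00563 in edgeR). Of 19 genes of the TCA cycle and pyruvate dehydrogenase, 5 higher and 6 lower with siRNA #1, 8 higher and 2 lower with siRNA #2 and 7 higher and 3 lower with siRNA #3 were called. CS, citrate synthase, rose by 0.33 ± 0.03 (SE, adjusted p = 7.9e-06 in edgeR) in the mean of the siRNAs, and PDHX, a binding component of pyruvate dehydrogenase, changed by -0.60 ± 0.04 (SE, adjusted p = 6.5e-07 in edgeR) and OGDH by -0.12 ± 0.04 (SE, adjusted p = 0.0231 in edgeR). Of 77 mitochondrial ribosomal protein genes, 25 higher and 13 lower with siRNA #1, 13 higher and 9 lower with siRNA #2 and 22 higher and 6 lower with siRNA #3 were called, and with siRNA #1 their median was 0.03, where that of the nuclear OXPHOS genes was -0.08 and that of 78 cytosolic ribosomal protein genes was -0.15, with 48 lower. MRPS34 and MRPS25 rose by 0.56 ± 0.04 (SE, adjusted p = 1.2e-06 in edgeR) and 0.48 ± 0.04 (SE, adjusted p = 1.5e-06 in edgeR) in the mean of the siRNAs and MRPS17 and MRPL21 were lower, at -0.65 ± 0.05 (SE, adjusted p = 5.4e-07 in edgeR) and -0.33 ± 0.04 (SE, adjusted p = 7.1e-05 in edgeR).

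Of 78 cytosolic ribosomal protein genes, 4 higher and 3 lower were called with siRNA #2 and 5 higher and 2 lower with siRNA #3. Over all genes, 13.7% and 12.1% were called higher and lower with siRNA #2, and 16.5% and 13.0% with siRNA #3. With siRNA #1 these shares were 21.9% and 23.3%. RPL11 rose by 0.17 ± 0.04 (SE, adjusted p = 0.0038 in edgeR) in the mean of the siRNAs, and RPL39L and RPL18 were lower, at -0.22 ± 0.05 (SE, adjusted p = 0.00686 in edgeR) and -0.22 ± 0.04 (SE, adjusted p = 0.00193 in edgeR). Among 16 regulators of mitochondrial genes, 5 higher and 2 lower with siRNA #1, 5 higher and 1 lower with siRNA #2 and 8 higher and 1 lower with siRNA #3 were called. POLRMT, the mitochondrial RNA polymerase, rose by 0.34 ± 0.04 (SE, adjusted p = 1.7e-05 in edgeR) and GABPB1 by 0.27 ± 0.04 (SE, adjusted p = 1.1e-04 in edgeR), and PPARGC1A, a coactivator of mitochondrial genes, changed by -0.34 ± 0.08 (SE, adjusted p = 0.00494 in edgeR) and MTERF1 by -0.15 ± 0.05 (SE, adjusted p = 0.0418 in edgeR). Of 16 glycolysis genes, 4 higher and 8 lower with siRNA #1, 7 higher and 1 lower with siRNA #2 and 2 higher and 5 lower with siRNA #3 were called. PFKL and PGAM1 rose by 0.53 ± 0.04 (SE, adjusted p = 1.2e-06 in edgeR) and 0.43 ± 0.05 (SE, adjusted p = 4.2e-05 in edgeR) in the mean, and TPI1 and HK2 were lower, at -0.23 ± 0.05 (SE, adjusted p = 0.0018 in edgeR) and -0.20 ± 0.05 (SE, adjusted p = 0.00829 in edgeR). Of 9 other OXPHOS isoform genes 4 were tested, and UQCRHL, a copy of UQCRH without introns, changed by -0.78 ± 0.23 (SE, adjusted p = 0.0224 in edgeR) in the mean of the siRNAs.

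Neural markers of HEK293 lines summed to 1014 ± 43.1 CPM in scramble, 974.6 ± 59.9 with siRNA #1, 1472 ± 9.36 with siRNA #2 and 1203 ± 44.8 with siRNA #3 (SD, n = 3). NEFM and VIM rose in the mean by 0.45 ± 0.04 (SE, adjusted p = 1.9e-06 in edgeR) and 0.22 ± 0.05 (SE, adjusted p = 0.00661 in edgeR), and INA and ENO2 were lower, at -0.90 ± 0.05 (SE, adjusted p = 1.2e-07 in edgeR) and -0.50 ± 0.05 (SE, adjusted p = 1.5e-05 in edgeR). Epithelial and kidney markers summed to between 49.3 and 59.8 CPM in the 12 libraries, with CDH1 lower, at -0.49 ± 0.05 (SE, adjusted p = 1.1e-05 in edgeR), and COL1A1, the single marker of other cells above 1 CPM, changed by -0.47 ± 0.05 (SE, adjusted p = 8.9e-06 in edgeR). The part of these shifts in the OXPHOS values was not tested.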
